A study of Homo sapiens with 60 samples.

Results

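The genes described here are 39 genes of DNA replication and S phase, the part of the cell cycle in which the genome is copied. They are the rows of the deposited gene table, which holds 60675 genes, whose symbol stands in a list of origin, helicase, polymerase, clamp, nucleotide and S-phase control genes. All 39 had at least 202 counts in each of the 60 libraries, and all 39 passed the filter on low counts. They fall into 9 roles, from origin recognition to the regulators of entry into S phase.

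RNA was sequenced from SW1783, a human astrocytoma cell line, after 24 h with an extract of a herbal medicine or with its vehicle, dimethyl sulfoxide (DMSO). Water extracts of Yijin-tang and Soshiho-tang, decoctions of several herbs, and ethanol extracts of Zizyphi Semen, Longan Arillus and Liriopis seu Ophiopogonis Tuber were used at 20, 100 and 500 µg/mL. Further ethanol extracts were Schisandrae Fructus at 12.4, 62 and 310 µg/mL, Polygalae Radix, whose doses were 1.2, 6 and 30 µg/mL, and Aucklandiae Radix, whose doses were 6.4, 32 and 160 µg/mL. The doses are called low, medium and high here. The design text states that extracts whose IC20, an inhibitory concentration, lay under 500 µg/mL were used at the IC20 and at dilutions of it, and the high doses of Schisandrae Fructus, Polygalae Radix and Aucklandiae Radix lie under 500 µg/mL. There were 3 libraries for each dose of Yijin-tang, Schisandrae Fructus, Longan Arillus, Zizyphi Semen and Liriopis seu Ophiopogonis Tuber, 2 for each dose of Soshiho-tang, 1 for each dose of Polygalae Radix and Aucklandiae Radix, and 3 for the vehicle. The design text also states that samples with too little RNA were left out. The labels give the vehicle as 0.1% DMSO and the design text as 2% DMSO. All groups are the same cell line.

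Replication starts where the origin recognition complex marks DNA and CDC6 and CDT1 load the MCM2 to MCM7 ring, the core of the replicative helicase. CDC45 and the GINS complex turn the loaded ring into an active helicase, after which the polymerases, the PCNA clamp and its RFC loader copy both strands. Thymidylate synthase and ribonucleotide reductase make the DNA precursors. Many of these genes are transcribed in late G1 and S phase under the E2F transcription factors, and cyclin E drives entry into S phase.

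Promoters of 33 of the 39 genes, taken from the RefSeq table (GRCh38.p14), were searched, with 1 start per gene. Where several were listed, the start of lowest coordinate was kept, which on the minus strand is the most downstream. Some of the promoters lie inside the annotated gene, among them those of MCM7, PCNA, RRM2, UHRF1 and GINS3, and other starts were not searched. Each promoter held 250 bases before and 50 bases after a transcript start. Those of MCM4, GINS4 and CCNE2, which share a chromosome, were left out of the search. Those of MCM5, POLD3 and RPA2 were not matched. An E2F-like word was searched on both strands: TTTCCCGC, TTTCGCGC, TTTGCCGC or TTTGGCGC, or their reverse complements GCGGGAAA, GCGCGAAA, GCGGCAAA and GCGCCAAA. It occurred in 18 of the 33 promoters (54.5%), against 3.27% of all 27305 promoters in the table. CCAAT or its reverse complement ATTGG, which does not overlap with the E2F-like words, occurred in 19 of the 33 (57.6%), against 35.6% of all promoters. The promoters below belong to 4 of the genes with the largest falls under Schisandrae Fructus and to CDC6, which changed in opposite directions under different extracts. All of them hold an E2F-like word. ORC1, which fell more than TYMS and UHRF1, holds no such word and is not printed. CCNE2, which also fell more than TYMS and UHRF1, was not searched. The printed promoters are written 5′ to 3′ on the strand of the gene, with the E2F-like words in capitals.
MCM3, chr6:52284693-52284992, minus strand: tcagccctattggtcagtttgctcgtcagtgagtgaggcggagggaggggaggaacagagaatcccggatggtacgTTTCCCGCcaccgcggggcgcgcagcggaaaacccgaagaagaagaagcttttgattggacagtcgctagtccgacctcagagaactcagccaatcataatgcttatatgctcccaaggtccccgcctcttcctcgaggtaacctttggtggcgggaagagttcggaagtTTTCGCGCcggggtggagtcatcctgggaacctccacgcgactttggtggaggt
POLA1, chrX:24693668-24693967, plus strand: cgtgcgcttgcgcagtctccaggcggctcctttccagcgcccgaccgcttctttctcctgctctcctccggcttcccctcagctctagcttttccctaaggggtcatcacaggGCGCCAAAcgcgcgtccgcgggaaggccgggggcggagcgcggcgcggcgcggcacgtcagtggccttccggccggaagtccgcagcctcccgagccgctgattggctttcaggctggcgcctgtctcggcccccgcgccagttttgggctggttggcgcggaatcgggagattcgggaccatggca
TYMS, chr18:657403-657702, plus strand: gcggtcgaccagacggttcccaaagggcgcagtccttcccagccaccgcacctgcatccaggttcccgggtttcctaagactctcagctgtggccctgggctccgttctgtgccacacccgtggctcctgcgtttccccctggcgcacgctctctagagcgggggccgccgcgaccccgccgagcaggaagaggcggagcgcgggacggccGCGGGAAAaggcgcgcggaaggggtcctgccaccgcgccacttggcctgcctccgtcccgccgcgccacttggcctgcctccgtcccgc
UHRF1, chr19:4909251-4909550, plus strand: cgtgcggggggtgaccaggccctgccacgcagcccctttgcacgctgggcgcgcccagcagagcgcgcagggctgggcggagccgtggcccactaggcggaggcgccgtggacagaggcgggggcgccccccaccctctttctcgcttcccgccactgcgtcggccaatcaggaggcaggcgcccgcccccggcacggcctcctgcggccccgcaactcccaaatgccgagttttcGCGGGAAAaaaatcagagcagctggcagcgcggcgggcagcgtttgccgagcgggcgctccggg
CDC6, chr17:40287629-40287928, plus strand: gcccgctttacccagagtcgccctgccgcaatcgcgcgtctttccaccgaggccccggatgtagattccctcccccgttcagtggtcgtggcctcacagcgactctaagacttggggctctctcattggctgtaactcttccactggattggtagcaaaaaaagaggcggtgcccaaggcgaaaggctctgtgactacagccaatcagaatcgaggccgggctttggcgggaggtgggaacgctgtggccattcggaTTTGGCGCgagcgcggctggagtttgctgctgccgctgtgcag
MCM3 held 2 of the E2F-like words and each of the other four promoters held 1. CCAAT or ATTGG occurred 3 times in the MCM3 window and 3 times in the CDC6 window, once in POLA1 and once in UHRF1, and was not among the letters of the TYMS window. A match is a description of the letters and not of binding.

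Libraries held 18.73 to 35.52 M counts (median 25.79 M). By the prefix of their names they fall into 5 sets, 1 of which is the vehicle alone, with 18.73 to 20.47 M counts, so that treatment and library set cannot be told apart in a comparison with the vehicle. High and medium doses were therefore set against the low dose of their own extract, from 1 set with them. Of the glial markers, VIM, SLC1A3, SOX9 and NES were detected in all libraries, while GFAP, S100B, AQP4 and ALDH1L1 did not exceed 0.326 CPM (counts scaled to library size) in any library. Among the markers of other cell types EPCAM and MOG stayed at or below 0.252 CPM, RBFOX3 at or below 0.645 CPM and PECAM1 at or below 1.55 CPM, while PTPRC reached 11.5 CPM and MBP 12.4 CPM. Levels below are CPM after scaling by the trimmed mean of M values (TMM). Nothing in the sources says that the libraries of a group came from separate cultures, so p-values measure the spread between these libraries.

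**Figure D1:**
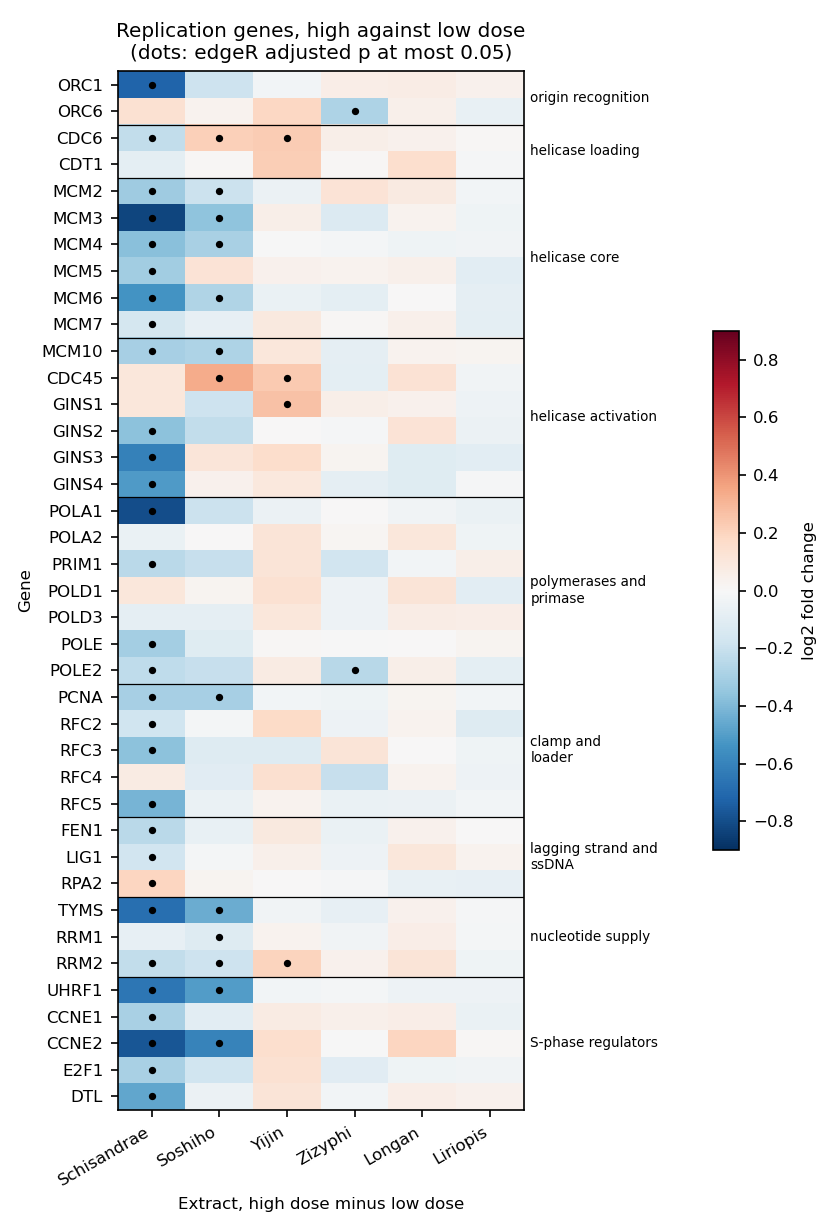
Log2 fold change of each of the 39 genes (rows, grouped by role) at the high dose minus the low dose of the 6 replicated extracts (columns), with red for higher and blue for lower at the high dose and a dot where the edgeR adjusted p was at most 0.05. The Schisandrae Fructus column holds 29 dotted falls and 1 dotted rise, the Soshiho-tang column 11 falls and 2 rises, the Yijin-tang column 4 rises and the Zizyphi Semen column 2 falls.

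At the high dose of Schisandrae Fructus, replication genes of nearly every role were lower than at its low dose. Of the 39 genes 29 fell and 1 rose, where 23.6% of all 17851 genes tested fell and 22.3% rose. The median log2 fold change over the 39 genes was -0.29, against 0.00 over all genes. All 6 genes of the MCM2 to MCM7 ring fell, as did all 5 S-phase regulators, 4 of 5 clamp and loader genes, 4 of 6 genes of helicase activation and 4 of 7 polymerase and primase genes. In bulk RNA, fewer cells in S phase and less of these RNAs per cell cannot be told apart.

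MCM3, a subunit of the helicase ring (chr6:52264009-52284881, minus strand), had 62.9, 68.9 and 69.4 CPM at the high dose of Schisandrae Fructus, against 121, 115 and 119 CPM at its low dose. The log2 fold change was -0.83 (SE 0.04, edgeR adjusted p = 3.21e-20), the largest fall among the 39 genes in this comparison. The groups did not overlap, and the medium dose, at 118, 117 and 116 CPM, lay with the low dose. POLA1, the catalytic subunit of the polymerase that lays down primers (chrX:24693919-24996986, plus strand), had 30.3, 30.5 and 31.8 CPM at the high dose and 55.1, 48.9 and 56.4 CPM at the low dose, a log2 fold change of -0.80 (SE 0.07, edgeR adjusted p = 1.43e-12). Every high-dose library was again below every low-dose library. CCNE2, a cyclin E (chr8:94879770-94896678, minus strand), had 11.3, 11.0 and 10.2 CPM at the high dose and 19.3, 18.4 and 17.3 CPM at the low dose, and fell by 0.77 on the log2 scale (SE 0.08, edgeR adjusted p = 2.21e-10).

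ORC1, the largest subunit of the origin recognition complex (chr1:52372829-52404459, minus strand), had 8.48, 8.87 and 8.53 CPM at the high dose of Schisandrae Fructus and 13.7, 14.1 and 14.6 CPM at its low dose, with a log2 fold change of -0.72 (SE 0.08, edgeR adjusted p = 9.93e-10). TYMS, thymidylate synthase (chr18:657604-673578, plus strand), had 46.8, 47.6 and 47.2 CPM at the high dose and 79.1, 72.3 and 74.2 CPM at the low dose, with a log2 fold change of -0.68 (SE 0.06, edgeR adjusted p = 1.27e-13). In both genes the groups were apart by far more than their spread. UHRF1, which brings the maintenance DNA methyltransferase to newly copied DNA (chr19:4903080-4962154, plus strand), averaged 40.3 ± 2.53 CPM at the high dose and 63.0 ± 1.3 CPM at the low dose (SD, n = 3 each), a log2 fold change of -0.65 (SE 0.05, edgeR adjusted p = 1.03e-13).

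Within the complexes the falls were unequal. Among the GINS subunits, which form a single tetramer, GINS3 fell by 0.61, GINS4 by 0.51 and GINS2 by 0.37 on the log2 scale, while GINS1 was at 0.10 (SE 0.06, edgeR adjusted p = 0.139). In the helicase ring MCM6 followed MCM3 with -0.54, MCM4 had -0.37, MCM2 -0.32 and MCM5 -0.31, and MCM7 had the smallest of the ring, -0.16 (SE 0.05, edgeR adjusted p = 0.00346).

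Among the polymerase genes, POLE, the catalytic subunit of the leading-strand polymerase, fell by 0.30, its partner POLE2 by 0.23 and the primase PRIM1 by 0.24 on the log2 scale. POLA2, POLD1 and POLD3 did not pass, at -0.06, 0.10 and -0.08. The clamp PCNA fell by 0.30, with 84.0, 92.4 and 98.0 CPM at the high dose and 112, 113 and 110.1 CPM at the low dose. Of the clamp loader, RFC5 fell by 0.42, RFC3 by 0.37 and RFC2 by 0.18, and RFC4 was at 0.07 (SE 0.07, edgeR adjusted p = 0.424). FEN1, which trims Okazaki fragments, and LIG1, which joins them, fell by 0.25 and 0.17.

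RPA2, a subunit of the protein that coats single-stranded DNA, was the only one of the 39 genes called higher at the high dose of Schisandrae Fructus. It had 56.7, 57.0 and 59.7 CPM at the high dose, against 53.4, 49.2 and 48.4 CPM at the low dose, a log2 fold change of 0.19 (SE 0.05, edgeR adjusted p = 0.00121). The other eight genes that passed in neither direction, beside RFC4, were ORC6, CDT1, CDC45, GINS1, POLA2, POLD1, POLD3 and RRM1, with log2 fold changes between -0.09 in CDT1 and 0.14 in ORC6. Of the remaining falls, DTL, which targets CDT1 for degradation, had -0.47, MCM10, which helps to start the helicase, -0.30, E2F1 -0.29, CCNE1 -0.29, RRM2 -0.22 and CDC6 -0.22.

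The marker PTPRC and the other markers of unrelated cell types summed to 12.1 to 13.0 CPM in the high-dose libraries of Schisandrae Fructus and to 15.0 to 15.8 CPM in its low-dose libraries. Most of that sum is PTPRC and MBP, and of the 4 tested of these 6 markers 2, MBP and RBFOX3, were called higher and 1, PTPRC, lower (median log2 fold change 0.28). The 8 glial markers summed to 4884 to 5260.2 CPM in the high-dose and 4722 to 4921 CPM in the low-dose libraries, nearly all of it VIM. Of the 4 glial markers tested 3, SLC1A3, SOX9 and NES, fell beside the replication genes and 1, VIM, rose (median log2 fold change -0.55). The part of either marker list in the result was not tested. The call of a fall was kept under every alternative setting for 23 of the 29 genes. The calls of LIG1, MCM7, POLE, POLE2, PRIM1 and RFC2 were lost under at least 1 setting, and 2 genes were called higher without replicate 2 of the high or of the low dose.

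**Figure D2:**
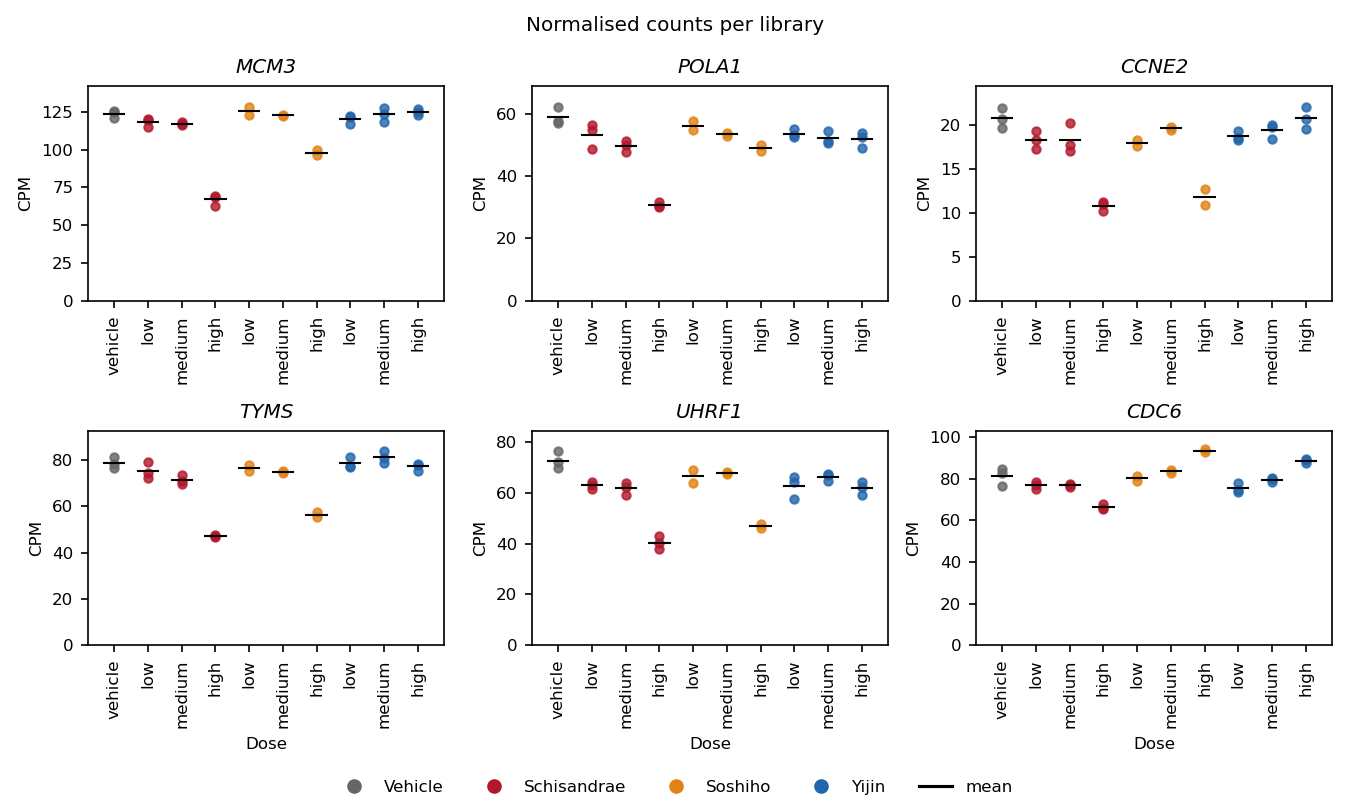
CPM of 6 replication genes (y axes, from 0) in each library of the vehicle, Schisandrae Fructus, Soshiho-tang and Yijin-tang groups by dose (x axes), with points for libraries and bars for group means. The high-dose libraries of Schisandrae Fructus lie below its low-dose libraries in all 6 genes, whereas in Soshiho-tang and Yijin-tang the high-dose libraries lie above the low-dose libraries in CDC6.

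At the high dose of Soshiho-tang helicase ring and nucleotide genes were lower than at its low dose, while a helicase loader and a helicase cofactor were higher. Of the 39 genes 11 were called lower and 2 higher, where 8.66% of all genes tested were lower and 9.92% higher. The median log2 fold change was -0.11 over the 39 genes and 0.00 over all genes. The calls lay in the helicase ring, with MCM2, MCM3, MCM4 and MCM6, in the nucleotide supply, with TYMS, RRM1 and RRM2, and in MCM10, PCNA, UHRF1 and CCNE2.

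CCNE2 had 10.9 and 12.7 CPM at the high dose of Soshiho-tang and 18.3 and 17.6 CPM at its low dose, a log2 fold change of -0.60 (SE 0.10, edgeR adjusted p = 1.21e-05). UHRF1 had 46.3 and 47.6 CPM at the high dose and 69.2 and 63.7 CPM at the low dose, a log2 fold change of -0.50 (SE 0.06, edgeR adjusted p = 5.14e-08). The groups did not overlap in either gene. TYMS had 55.2 and 57.4 CPM at the high dose, against 78.0 and 75.2 CPM at the low dose, with a log2 fold change of -0.45 (SE 0.07, edgeR adjusted p = 1.83e-06). MCM3 had 99.5 and 96.4 CPM at the high dose, against 128 and 123 CPM at the low dose, with a log2 fold change of -0.36 (SE 0.05, edgeR adjusted p = 3.05e-07).

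CDC45, the helicase cofactor, was higher, with 27.2 and 26.5 CPM at the high dose of Soshiho-tang and 21.1 and 21.5 CPM at its low dose, a log2 fold change of 0.33 (SE 0.09, edgeR adjusted p = 0.00584). CDC6, the helicase loader, was the other rise, with 92.9 and 94.2 CPM at the high dose and 79.1 and 81.5 CPM at the low dose, a log2 fold change of 0.22 (SE 0.05, edgeR adjusted p = 3.05e-04). Neither gene had overlapping groups. Of the further falls PCNA had a log2 fold change of -0.30, MCM4 -0.29, MCM10 -0.27, MCM6 -0.27, MCM2 -0.19, RRM2 -0.19 and RRM1 -0.11. The polymerase, primase and origin recognition genes did not pass, with log2 fold changes between -0.21 and 0.03 in both roles together.

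With 2 libraries a group these counts moved with single libraries. Without replicate 2 of the high dose 6 genes were called lower and 1 higher, without replicate 3 of the low dose 7 were called lower, and without replicate 2 of the low dose 1 was called higher. The calls of CCNE2, UHRF1, TYMS, MCM3 and MCM4 were kept under every setting. Markers of other cell types summed to 14.7 to 15.3 CPM in the high-dose libraries and to 15.95 to 17.03 CPM in the low-dose libraries, with 1 of the 4 tested, MBP, called higher and 1, PTPRC, lower. The glial markers summed to 5412 to 5599.7 CPM in the high-dose and 5135 to 5207 CPM in the low-dose libraries, which did not overlap, and of the 4 tested 1, NES, was called higher and 1, SLC1A3, lower (median log2 fold change 0.12). The part of either marker list in the result was not tested.

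Under Yijin-tang, the other decoction, 4 of the 39 genes rose at the high dose and 0 fell, where 3.61% of all genes tested were higher and 3.39% lower. The median log2 fold change was 0.09 over the 39 genes. GINS1 had 44.9, 41.7 and 42.7 CPM at the high dose of Yijin-tang and 35.7, 35.5 and 36.4 CPM at its low dose, a log2 fold change of 0.26 (SE 0.06, edgeR adjusted p = 0.00168). CDC45 had 22.6, 27.1 and 26.2 CPM at the high dose and 19.8, 22.3 and 22.1 CPM at the low dose, a log2 fold change of 0.24 (SE 0.07, edgeR adjusted p = 0.0371). All the high-dose libraries were above all the low-dose libraries in both genes.

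CDC6 had 89.0, 87.6 and 89.3 CPM at the high dose of Yijin-tang and 73.5, 78.0 and 74.6 CPM at its low dose, a log2 fold change of 0.23 (SE 0.04, edgeR adjusted p = 2.13e-05). RRM2, the regulated subunit of ribonucleotide reductase, had 178, 185 and 186 CPM at the high dose and 156, 160.1 and 159.8 CPM at the low dose, a log2 fold change of 0.20 (SE 0.04, edgeR adjusted p = 9.37e-04). Both genes were higher in 3 of 3 high-dose libraries. The call of CDC45 was lost under 6 of 12 alternative settings, and the other three calls were kept under all of them. When only the libraries of the comparison were fitted, 8 genes were called higher. The glial markers summed to 4402 to 4496 CPM in the high-dose libraries of Yijin-tang and to 4746 to 4763 CPM in its low-dose libraries, which did not overlap, and of the 4 tested 2, SLC1A3 and SOX9, were called lower and 0 higher (median log2 fold change -0.26). Markers of other cell types summed to 16.3 to 19.1 CPM in the high-dose and 16.1 to 18.3 CPM in the low-dose libraries, which overlapped. The part of either marker list in the result was not tested.

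Of the 11 genes lower at the high dose of Soshiho-tang 10 were also lower at the high dose of Schisandrae Fructus, which is 90.9% of the first list and 34.5% of the second, and RRM1 was the exception. Of all 39 genes 74.4% were lower at the high dose of Schisandrae Fructus, and the difference between these shares was not tested. CDC6 was called higher in both decoctions and lower in Schisandrae Fructus. CDC45 was also called higher in both decoctions.

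**Figure D3:**
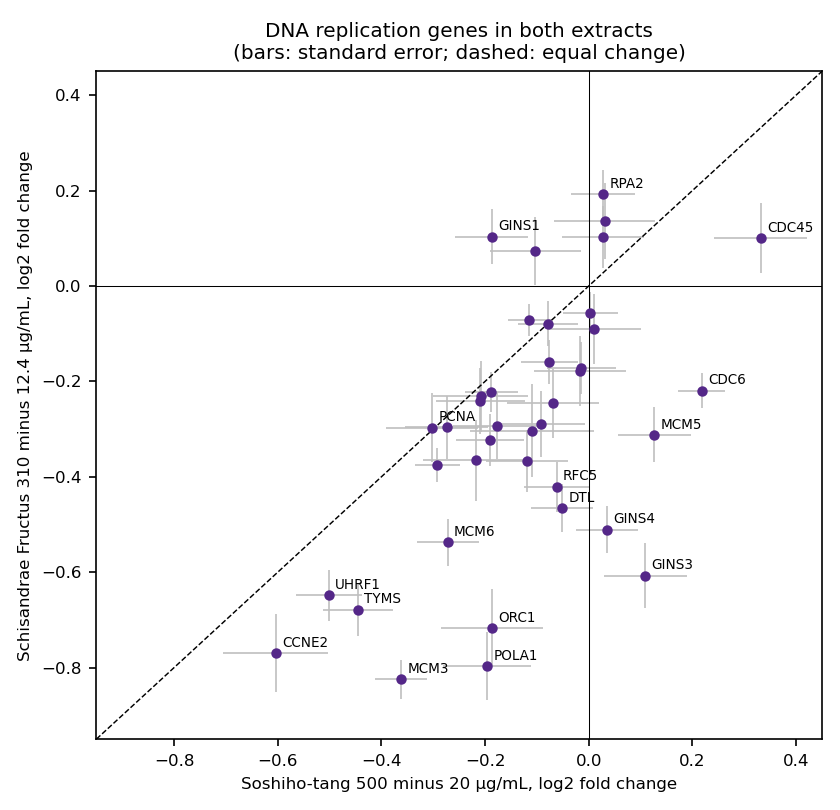
Log2 fold change at the high minus the low dose of each of the 39 genes in Soshiho-tang (x axis) and Schisandrae Fructus (y axis), with standard errors as bars and a dashed line of equal change. GINS3, GINS4, CDC6 and MCM5 lie to the right of 0 for Soshiho-tang and below 0 for Schisandrae Fructus, and CCNE2, UHRF1, TYMS and MCM3 lie low on both axes.

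The differences between the extracts were tested as the high-minus-low change of one extract minus that of the other. The doses behind them differ where Schisandrae Fructus takes part, at 310 and 12.4 µg/mL against 500 and 20 µg/mL. It is also an ethanol extract, the decoctions are water extracts, and its libraries belong to another set. Each change was taken within 1 set, but extract, dose, solvent and set cannot be told apart in the difference. Schisandrae Fructus minus Yijin-tang gave 31 genes lower and 1 higher of 39, where 12.6% of all genes tested were lower and 11.3% higher. The one higher was RPA2, at 0.19 (SE 0.07, edgeR adjusted p = 0.0435). This call was lost without Yijin-tang high replicate 1 or 2 or low replicate 1 or 3, and without replicate 2 or 3 of either Schisandrae Fructus dose. Schisandrae Fructus minus Soshiho-tang gave 11 lower and 1 higher, where 13.2% of all genes were lower and 10.9% higher. These tests share the Schisandrae Fructus libraries.

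GINS3 differed most between Schisandrae Fructus and Soshiho-tang, at -0.72 (SE 0.11, edgeR adjusted p = 1.07e-06). It had 9.23, 7.99 and 8.72 CPM at the high and 12.9, 12.5 and 14.0 CPM at the low dose of Schisandrae Fructus, and 14.2 and 14.2 CPM at the high and 13.4 and 12.9 CPM at the low dose of Soshiho-tang. POLA1 differed by -0.60 (SE 0.11, edgeR adjusted p = 5.12e-05), ORC1 by -0.53 (SE 0.13, edgeR adjusted p = 0.00152) and CDC6 by -0.44 (SE 0.06, edgeR adjusted p = 1.65e-07). The one gene that stood higher under Schisandrae Fructus was GINS1, at 0.29 (SE 0.09, edgeR adjusted p = 0.0151), a call lost without Soshiho-tang high replicate 2 or low replicate 3.

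Between the decoctions, both at 500 and 20 µg/mL, Soshiho-tang minus Yijin-tang gave 8 genes lower and 0 higher, where 4.3% of all genes were lower and 5.1% higher. They were CCNE2, UHRF1, GINS1, TYMS, MCM3, RRM2, MCM10 and MCM4. CCNE2 differed by -0.75 (SE 0.13, edgeR adjusted p = 3.20e-05) and RRM2 by -0.39 (SE 0.07, edgeR adjusted p = 3.15e-05). CDC6 and CDC45, called higher in both decoctions, differed by -0.01 (SE 0.06, edgeR adjusted p = 0.951) and 0.09 (SE 0.12, edgeR adjusted p = 0.754), which did not pass.

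Under Zizyphi Semen 2 of the 39 genes fell at the high dose and 0 rose, where 3.76% of all genes tested were lower and 2.02% higher. ORC6, a subunit of the origin recognition complex, had 26.0, 20.5 and 25.8 CPM at the high dose and 30.6, 28.4 and 28.6 CPM at the low dose, a log2 fold change of -0.28 (SE 0.08, edgeR adjusted p = 0.0329). POLE2 had 10.8, 11.4 and 10.6 CPM at the high dose and 13.7, 11.8 and 13.1 CPM at the low dose, a log2 fold change of -0.25 (SE 0.08, edgeR adjusted p = 0.0429). The libraries of the doses did not overlap, but neither call was kept under every alternative, and the count fell to 0 without Zizyphi Semen high replicate 2, low replicate 1 or low replicate 3, and to 1 without each of the other three libraries.

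Longan Arillus and Liriopis seu Ophiopogonis Tuber gave no call among the 39 genes. For Longan Arillus 0 genes passed at the high dose in edgeR and 0 in DESeq2, with 5 at an unadjusted p under 0.05, where 0.342% of all genes tested were higher and 0.594% lower. Its log2 fold changes lay between -0.11 and 0.19, with the highest in CCNE2 at 0.19 (SE 0.08, edgeR adjusted p = 0.333). For Liriopis seu Ophiopogonis Tuber 0 passed at the high dose in edgeR and 0 in DESeq2, with 0 at an unadjusted p under 0.05 and 0% of all genes called. Its log2 fold changes lay between -0.12 and 0.06. Longan Arillus minus Zizyphi Semen, both at 500 and 20 µg/mL, differed in 0 of the 39 genes, with 4 at an unadjusted p under 0.05, where 2.55% of all genes were higher and 1.41% lower. The largest difference among the 39 genes was 0.32 on the log2 scale.

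At the medium doses no gene of the 39 passed against the low dose in edgeR or in DESeq2 in any of the 6 replicated extracts. The counts at an unadjusted p under 0.05 were 2 for Yijin-tang, 0 for Soshiho-tang, 1 for Schisandrae Fructus, 0 for Longan Arillus, 0 for Zizyphi Semen and 2 for Liriopis seu Ophiopogonis Tuber. Of all genes tested 0.0224% were higher and 0% lower at the medium dose of Yijin-tang, 0% higher and 0.0112% lower at that of Soshiho-tang, 0.028% higher and 0.0112% lower at that of Schisandrae Fructus, and 0% in both directions at those of the other three extracts. The log2 fold changes of the 39 genes at the medium dose lay between -0.15 and 0.10 for Schisandrae Fructus and between -0.10 and 0.15 for Soshiho-tang.

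**Figure D4:**
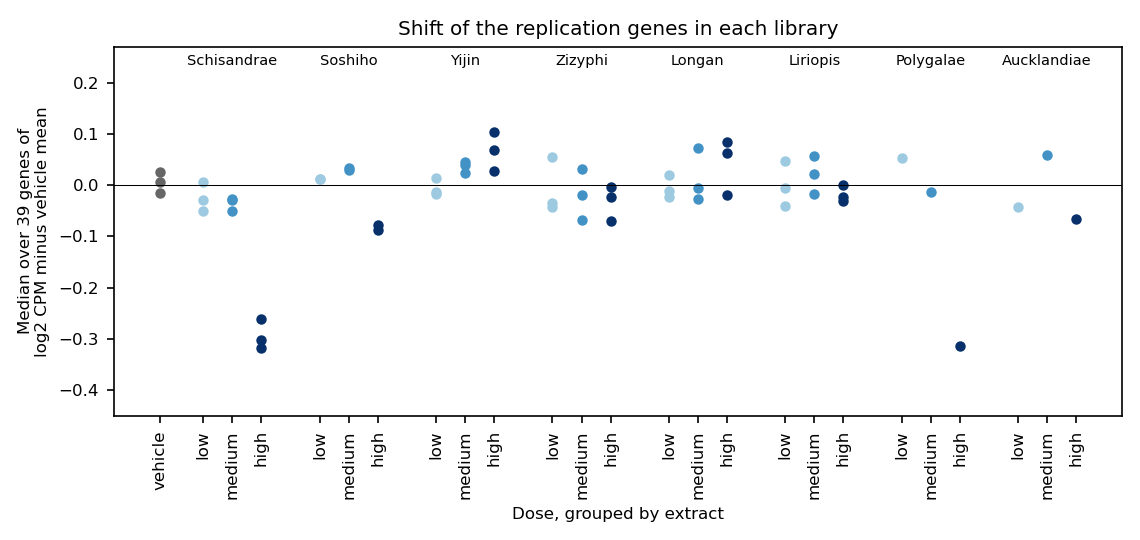
Median over the 39 genes of log2 CPM minus the vehicle mean (y axis) in each library, grouped by extract and dose (x axis), with 1 point per library. The high-dose libraries of Schisandrae Fructus lie at -0.32, -0.30 and -0.26 and the single high-dose library of Polygalae Radix at -0.31, below all the other libraries. These values are after TMM scaling. Without it the summed level of the 39 genes in the Polygalae Radix library was 2200 CPM, above the vehicle libraries at 2117 to 2178 CPM.

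The levels of the 39 genes were also summed in each library. In Schisandrae Fructus the sum averaged 2115 ± 41.9 CPM at the low, 2092 ± 18.8 CPM at the medium and 1752 ± 43.5 CPM at the high dose (SD, n = 3 each), with the vehicle at 2173 ± 17.4 CPM (SD, n = 3). In Soshiho-tang it averaged 2212 ± 11.5 CPM at the low, 2219 ± 2.01 CPM at the medium and 2018 ± 19.9 CPM at the high dose (SD, n = 2 each). In Yijin-tang it averaged 2138 ± 26.2 CPM at the low, 2217 ± 19.1 CPM at the medium and 2254 ± 41.1 CPM at the high dose (SD, n = 3 each). The low- and medium-dose libraries overlapped in Schisandrae Fructus but not in Yijin-tang, where they lay at 2117 to 2167 and 2195 to 2229 CPM.

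Each treated group was also set against the vehicle. With Schisandrae Fructus at the high dose 30 of the 39 genes were lower and 1 higher than in the vehicle, where 26.7% of all genes were lower and 23.4% higher. Its medium dose had 4 lower and 0 higher, where 3.34% and 2.05% of all genes were, and the 4 were MCM6, POLA1, MCM4 and UHRF1. With Soshiho-tang at the high dose 14 were lower and 4 higher, where 16.2% and 14.2% of all genes were, and CCNE2 had the largest fall, of 0.83 on the log2 scale. MCM5 and GINS3 were the rises beside CDC45 and CDC6, at log2 fold changes of 0.24 and 0.27.

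With Yijin-tang at the high dose 12 of the 39 genes were higher and 3 lower than in the vehicle, where 8.02% of all genes were higher and 11.7% lower. E2F1 had the largest rise, of 0.30 on the log2 scale, and MCM6, POLA1 and UHRF1 were the falls, at -0.17, -0.20 and -0.24. At its medium dose 2 were higher and 0 lower, where 3.85% and 10.4% of all genes were. The medium dose of Soshiho-tang had 0 higher and 0 lower, where 1.27% and 2.93% of all genes were. UHRF1 was lower than in the vehicle even at the low doses of Schisandrae Fructus and Yijin-tang, at -0.21 and -0.22 on the log2 scale, and was the 1 gene called there. Of all genes 0.471% were higher and 0.611% lower at the low dose of Schisandrae Fructus, 1% and 1.61% at that of Yijin-tang and 0.532% and 1.38% at that of Soshiho-tang, where 0 of the 39 were called. In these comparisons the library set and the treatment cannot be told apart.

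The other extracts were also compared with the vehicle. Longan Arillus had 2 higher and 1 lower at the high dose, where 5.61% and 10.3% of all genes were, and 6 higher and 3 lower at the medium dose, where 10% and 15.2% were. Zizyphi Semen had 1 higher and 4 lower at the high dose, where 5.3% and 7.97% were, and 1 higher and 2 lower at the medium dose, where 5.31% and 9.11% were. Liriopis seu Ophiopogonis Tuber had 0 higher and 2 lower at the high dose, where 1.42% and 2.67% were, and 1 higher and 1 lower at the medium dose, where 4.06% and 8.9% were. The low doses of Longan Arillus and Liriopis seu Ophiopogonis Tuber had 0 called, where 1.63% and 2.02% of all genes were higher and 3.78% and 4.58% lower, and the low dose of Zizyphi Semen had 1 higher and 2 lower, where 6.61% and 11.9% were. GINS3 was higher and MCM10 lower than in the vehicle at all 3 doses of Zizyphi Semen, with log2 differences at the low, medium and high dose of 0.24, 0.21 and 0.26 in GINS3 and of -0.22, -0.20 and -0.29 in MCM10. Under Longan Arillus, from the same set, GINS3 averaged 13.7, 13.1 and 12.7 CPM at these doses and MCM10 24.3, 23.4 and 25.0 CPM. The vehicle had 11.7 CPM in GINS3 and 26.0 CPM in MCM10. Here too the library set and the treatment cannot be told apart.

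Across the 19 replicated groups, the group means of the followed genes had their lowest value at the high dose of Schisandrae Fructus in every case. TYMS, for example, averaged 47.2 ± 0.390 CPM there and 56.3 ± 1.51 CPM (SD, n = 2) at the high dose of Soshiho-tang, the next lowest, with 71.3 to 81.2 CPM in the other groups. The next lowest group was the high dose of Soshiho-tang in CCNE1, CCNE2, E2F1, PCNA, RRM2 and UHRF1 as well. MCM5 and CDC6 ran otherwise: their highest group means were at the high dose of Soshiho-tang, with 80.9 ± 2.45 CPM in MCM5 and 93.6 ± 0.889 CPM in CDC6 (SD, n = 2), while the vehicle averaged 68.0 ± 4.01 and 81.4 ± 4.33 CPM (SD, n = 3). CCNE1 at the high dose of Soshiho-tang, at 16.6 ± 0.640 CPM, and in the vehicle, at 18.2 ± 1.66 CPM, were apart by about the spread between libraries. DTL was lowest at 39.03 ± 1.48 CPM at the high dose of Schisandrae Fructus and highest at 58.1 ± 0.812 CPM at the high dose of Yijin-tang (SD, n = 3 each).

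The genes with an E2F-like word in the promoter window are described without a test. Only the 33 genes with a searched promoter are split here. Of the 6 others, CCNE2, GINS4, MCM4 and MCM5 fell at the high dose of Schisandrae Fructus, RPA2 rose and POLD3 did not pass. Under Schisandrae Fructus at the high dose 15 of the 18 genes with the word fell, with a median log2 fold change of -0.34, as did 10 of the 15 without it, with a median of -0.22. Under Soshiho-tang at the high dose 5 of the 18 with the word fell and 1 rose (median -0.18), and 4 of the 15 without it fell and 1 rose (median -0.09). CDC6 and GINS1, which carry the word, rose under Yijin-tang at the high dose, as did CDC45 and RRM2, which do not. MCM3, POLA1, TYMS and UHRF1, whose windows are printed above, all carry it, and ORC1, which fell by 0.72 under Schisandrae Fructus, does not.

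Genes of the same processes outside the 39 were followed in 4 lists. Of 30 further origin and fork factors 4 were higher and 9 lower at the high than at the low dose of Schisandrae Fructus (median log2 fold change -0.04), where 22.3% of all genes tested were higher and 23.6% lower. The share of falls in this list was above that of all genes and the share of rises below it, and neither difference was tested. DONSON, a fork protein, rose by 0.43 (SE 0.05, edgeR adjusted p = 1.45e-10), the origin-firing kinase CDC7 fell by 0.52 (SE 0.06, edgeR adjusted p = 4.67e-10) and ORC4 fell by 0.35 (SE 0.06, edgeR adjusted p = 9.33e-06). Soshiho-tang at the high dose had 1 rise, ORC3, and 0 falls (median -0.01), where 9.92% of all genes were higher and 8.66% lower. Yijin-tang had 3 rises and 0 falls (median 0.05) at that dose, where 3.61% of all genes were higher and 3.39% lower. At the high dose of Zizyphi Semen 0 rose and 3 fell (median -0.05), where 2.02% of all genes were higher and 3.76% lower.

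Of 15 genes of nucleotide supply and chromatin assembly 1 was higher and 7 were lower at the high than at the low dose of Schisandrae Fructus (median log2 fold change -0.18), where 22.3% of all genes were higher and 23.6% lower. HELLS, a chromatin remodeller, fell by 0.81 (SE 0.07, edgeR adjusted p = 2.14e-12), and SAMHD1, which breaks down DNA precursors, by 0.62 (SE 0.05, edgeR adjusted p = 7.90e-14). Under Soshiho-tang 5 fell and 0 rose (median -0.12), where 8.66% of all genes were lower and 9.92% higher, with HELLS at -0.59 and CTPS1, which makes CTP, at -0.20.

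The 27 tested genes of a list of 28 for G1-S control held calls in both directions. Under Schisandrae Fructus at the high dose 8 rose and 13 fell (median log2 fold change -0.12), where 22.3% of all genes were higher and 23.6% lower. The transcription factor MYC rose by 0.72 (SE 0.05, edgeR adjusted p = 1.28e-15), the cyclin-dependent kinase inhibitor CDKN2C fell by 0.76 and TFDP1, the partner of E2F proteins, fell by 0.52. Under Soshiho-tang 5 rose and 7 fell (median -0.03), where 9.92% of all genes were higher and 8.66% lower, with MYC at 1.04, the repressor E2F7 at 1.36 and CDKN2C at -0.99. CDKN1A, which encodes the inhibitor p21, rose by 1.01 at the same dose (SE 0.11, edgeR adjusted p = 3.78e-10) and was at -0.11 at the high dose of Schisandrae Fructus (edgeR adjusted p = 0.327). CCND1, cyclin D1, rose by 0.53 at the high dose of Schisandrae Fructus (edgeR adjusted p = 1.01e-10) and was at 0.02 at that of Soshiho-tang (edgeR adjusted p = 0.920). Under Yijin-tang 4 rose and 0 fell (median 0.02), where 3.61% of all genes were higher and 3.39% lower.

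Of 25 genes of mitosis 18 rose under Schisandrae Fructus at the high dose and 1, the spindle motor KIF11, fell (median log2 fold change 0.18), where 22.3% of all genes were higher and 23.6% lower. The checkpoint kinase BUB1 rose by 0.57 (SE 0.05, edgeR adjusted p = 7.38e-13), the motor KIF20A by 0.36 (SE 0.04, edgeR adjusted p = 9.76e-10) and cyclin B2, CCNB2, by 0.45 (SE 0.06, edgeR adjusted p = 6.33e-09). Under Soshiho-tang 15 of the 25 were lower and 0 higher (median -0.21), where 8.66% of all genes were lower and 9.92% higher, with KIF20A at -0.66. Schisandrae Fructus minus Soshiho-tang was higher in 19 of the 25 and lower in 0 (median 0.46), where 10.9% of all genes were higher and 13.2% lower.

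Under Yijin-tang 4 of the 25 mitosis genes rose and 0 fell (median 0.12), where 3.61% of all genes were higher and 3.39% lower. Under Zizyphi Semen 8 fell and 0 rose (median -0.09), where 3.76% of all genes were lower and 2.02% higher, with CENPE, a kinetochore motor, at -2.45, its partner CENPF at -1.24 and MKI67, the proliferation marker, at -1.02 on the log2 scale, while 2 of the 39 replication genes fell. MKI67 was at 0.01 at the high dose of Schisandrae Fructus (edgeR adjusted p = 0.974) and at -0.43 at that of Soshiho-tang (edgeR adjusted p = 0.194).

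Polygalae Radix and Aucklandiae Radix had 1 library per dose, so their differences have no replicate check and no test, and library set and treatment cannot be told apart against the vehicle. A gene was counted when it differed from the vehicle mean by 1.5-fold or more and fell outside the vehicle range. At the high dose of Polygalae Radix 12 of the 39 genes were counted lower and 8 higher, where 23.9% of 18607 genes were lower and 22.3% higher. The median log2 difference was -0.31 over the 39 genes and 0.03 over all genes. The lower level depended on the TMM scaling. The 39 genes summed to 1789 CPM in this library with TMM and to 2200 CPM by library size alone. By library size alone the vehicle libraries had 2178, 2141 and 2117 CPM, and the high-dose libraries of Schisandrae Fructus 1704, 1773 and 1799 CPM. The 8 glial markers summed to 892 CPM in this library and to 3707 to 5726 CPM in the other 59, and the part of this in the result was not tested.

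RRM1, the large subunit of ribonucleotide reductase, had 42.0 CPM at the high dose of Polygalae Radix, against 155, 158 and 155 CPM in the vehicle libraries, a log2 difference of -1.89. POLA1 had 21.3 CPM, against 57.2, 62.4 and 57.8 CPM in the vehicle libraries, a log2 difference of -1.47. All 6 genes of the MCM2 to MCM7 ring were counted lower, from -1.39 in MCM6 to -0.85 in MCM4. The other falls were LIG1, POLD1, TYMS and PCNA, between -0.85 and -0.62.

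ORC6 had 75.05 CPM at the high dose of Polygalae Radix, against 28.6, 25.5 and 23.6 CPM in the vehicle libraries, a log2 difference of 1.54. Its level was 33.2 CPM at the low and 40.8 CPM at the medium dose. CCNE2 had 47.3 CPM, against 22.0, 19.7 and 20.7 CPM in the vehicle libraries, a log2 difference of 1.18. The other genes counted higher were GINS3 at 1.13, CCNE1 at 0.99, E2F1 at 0.93, CDT1 at 0.81, GINS1 at 0.78 and RFC3 at 0.63. Set against the low-dose library of the same extract and set, CCNE2 was at 1.38, ORC6 at 1.18 and RRM1 at -1.84 on the log2 scale.

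At the high dose of Aucklandiae Radix 9 of the 39 genes were counted lower and 2 higher, where 22% of all genes were lower and 19.1% higher. The median log2 difference was -0.07 over the 39 genes. RRM2 had 71.3 CPM, against 170.5, 169.6 and 163 CPM in the vehicle libraries, a log2 difference of -1.23. POLE had 31.7 CPM, against 68.0, 69.1 and 71.6 CPM in the vehicle libraries, a log2 difference of -1.13. POLA1, MCM7, LIG1, RFC3, RRM1, MCM10 and CCNE2 followed, between -0.87 and -0.62. CCNE1 had 34.7 CPM, against 19.6, 18.5 and 16.3 CPM in the vehicle libraries, and E2F1 70.8 CPM, against 39.4, 39.3 and 37.6 CPM, with log2 differences of 0.93 and 0.87.

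**Figure D5:**
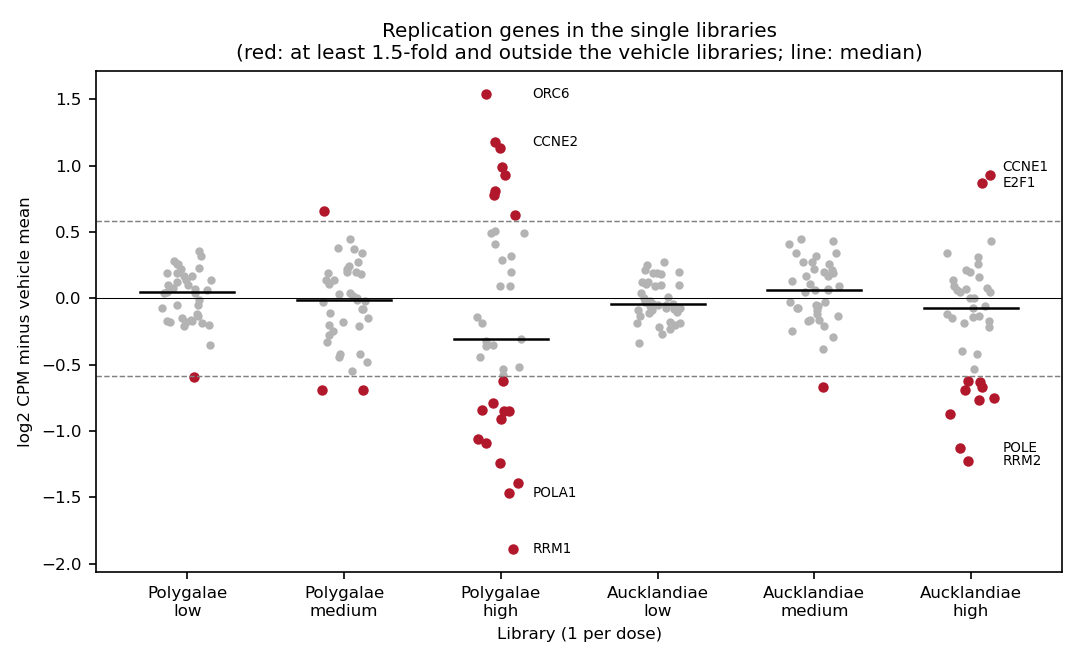
Log2 CPM minus the vehicle mean (y axis) of the 39 genes in the single libraries of Polygalae Radix and Aucklandiae Radix (x axis), with red points at least 1.5-fold from the vehicle mean (dashed lines) and outside the vehicle range, and black lines at the medians. The spread is widest at the high dose of Polygalae Radix, from -1.89 in RRM1 to 1.54 in ORC6.

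CCNE2 stood on opposite sides in these libraries, at 1.18 for Polygalae Radix and -0.62 for Aucklandiae Radix, and a difference between 1 library each was not tested. At the medium dose of Polygalae Radix 2 genes, POLA1 and POLE, were counted lower and 1, ORC6, higher, where 7.66% and 6.92% of all genes were. At its low dose POLE was the 1 counted lower and 0 were higher, where 9.83% and 8.14% were. At the medium dose of Aucklandiae Radix POLE was the 1 counted lower and 0 were higher, where 12.2% and 9.69% were. At its low dose 0 were counted in either direction, where 5.69% of all genes were lower and 6.81% higher. POLE had 46.2 and 43.0 CPM at the low and medium dose of Polygalae Radix and 43.8 CPM at the medium dose of Aucklandiae Radix. Its mean was 69.5 CPM in the vehicle and 51.8 to 63.7 CPM in the treated replicated groups. Single libraries there were also low, with 44.8 CPM in Zizyphi Semen low replicate 1 and 46.1 CPM in Longan Arillus medium replicate 3.

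Some of the 39 genes share reads with other genes. Expected counts that are not whole, a sign of reads divided between genes, were present in all libraries for CCNE2, ORC6, RFC5 and TYMS, in 96.7% of libraries for UHRF1, in 95% for GINS3 and MCM7 and in 60% for GINS4, so the values of these 8 genes depend on how reads were divided. Every value was whole for 25 genes, among them MCM3, POLA1, ORC1, CDC45 and CDC6. In the GENCODE annotation of GRCh38, 17 of the 39 genes overlap a gene on the opposite strand and 12 overlap one on the same strand. The kit marks strand, but the strand setting of the counting is not given in the sources used here, so reads of such pairs, CCNE2, TYMS, GINS3, GINS4 and POLA1 among them, may not be separated.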

How the data were processed

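The 60 libraries were made from total RNA of SW1783 cells with a strand-directional kit, per the labels' protocols. Per the submitters' processing notes, the tools were FastQC 0.11.9, Trim Galore 0.6.5, STAR 2.7.3a and RSEM 1.3.3 with hg38; the annotation release is not given in the sources used here. The deposited table holds the authors' RSEM expected counts, of which 10.86% are not whole because RSEM divides reads that match several genes. These were rounded to whole numbers.

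The 54 libraries of the 19 groups with at least 2 libraries were fitted together in edgeR 4.0.16 (R 4.3.3, limma 3.58.1) with TMM scaling and the default filter, which left 17851 genes. The quasi-likelihood F test had 35 residual degrees of freedom, p-values were Benjamini-Hochberg adjusted over all 17851 genes, and a gene passed at 0.05. The SE is the absolute log2 fold change divided by the square root of F. CPM used TMM over all 60 libraries, and log2 CPM for single libraries a prior count of 2. The script was tested on simulated data. A chi-square check of 51 pairs within groups found none that agreed within sampling noise (2.24 to 55.64 per degree of freedom).

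The genes, lists and named genes were chosen with earlier results of these data known. Per high-dose comparison up to 5 called genes of largest change are given in every library, 10 genes (CCNE1, CCNE2, E2F1, CDC6, MCM5, PCNA, RRM2, TYMS, UHRF1 and DTL) are followed in all replicated groups, up to 3 genes of lowest adjusted p per list are given, and CDKN1A, CCND1 and MKI67 are followed. Other genes are named for their role. Alternatives were DESeq2 1.42.0, its size factors, no filter, only the libraries compared, a replicate block, each library left out and the vehicle as reference; for single libraries they were 2-fold, a prior count of 0.5, the size factors, the low-dose library as reference and each vehicle library left out. Libraries held 18.73 to 35.52 M counts, which gave each of the 39 genes at least 202 counts in every library. Values of 1 gene of the nucleotide supply list are not reported here.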

Additional observations from a re-analysis of the deposited data

Results flagged for a closer look

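The dose responses of the extracts differed from one another in the replication genes, by tests of the difference itself. Soshiho-tang minus Yijin-tang differed in 8 genes, with CCNE2 at -0.75, UHRF1 at -0.48, GINS1 at -0.45, TYMS at -0.42 and MCM3 at -0.41 on the log2 scale. Schisandrae Fructus minus Yijin-tang differed in 32 genes, with CCNE2 at -0.92, MCM3 at -0.88, GINS3 at -0.77, POLA1 at -0.75 and ORC1 at -0.70. Schisandrae Fructus minus Soshiho-tang differed in 12 genes, with GINS3 at -0.72, POLA1 at -0.60, GINS4 at -0.55, ORC1 at -0.53 and MCM3 at -0.46. The high doses behind these differences are 310 µg/mL for Schisandrae Fructus and 500 µg/mL for both decoctions. The Schisandrae Fructus libraries also belong to another set than those of the decoctions, which cannot be told apart from the extract. Groups of 3 or 2 libraries are too small for a check of single outlying samples.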

How the results depend on the processing

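No alternative reversed the direction of a called gene. The call was kept under every setting for 24 of 30 called genes in Schisandrae Fructus, 5 of 13 in Soshiho-tang, 3 of 4 in Yijin-tang and 0 of 2 in Zizyphi Semen. Same-numbered libraries correlated between -0.05 and 0.25, and whether replicate numbers pair the libraries differed between groups. For Schisandrae Fructus high the values were -0.01, -0.05 and -0.02, below the highest between other numbers, 0.06, 0.07 and 0.03. Liriopis seu Ophiopogonis Tuber medium had 0.11, 0.17 and 0.1, above the highest between other numbers, -0.03, -0.07 and 0. Longan Arillus medium was mixed, at 0.02, 0.13 and 0.25 against 0.18, 0.04 and -0.04. With a replicate block Schisandrae Fructus had 29 lower and 1 higher, Soshiho-tang 11 lower and 2 higher, Yijin-tang 4 higher and Zizyphi Semen 1 lower, and Schisandrae Fructus minus Yijin-tang had 0 higher. Without the filter Soshiho-tang had 7 lower and 1 higher, Zizyphi Semen 1 lower, and Schisandrae Fructus minus Yijin-tang and minus Soshiho-tang 0 higher each. With only the libraries compared Yijin-tang had 8 higher, Zizyphi Semen 0 lower and Soshiho-tang minus Yijin-tang 13 lower. DESeq2 gave Zizyphi Semen 1 lower. With the vehicle as reference Yijin-tang had 12 higher and 3 lower at the high and 2 higher at the medium dose, Soshiho-tang 4 higher at the high, Schisandrae Fructus 4 lower at the medium, Longan Arillus 2 higher and 1 lower at the high and 6 higher and 3 lower at the medium, Zizyphi Semen 1 higher and 4 lower at the high and 1 higher and 2 lower at the medium, and Liriopis seu Ophiopogonis Tuber 2 lower at the high and 1 higher and 1 lower at the medium dose. Leaving out each library gave 6 to 9 lower and 1 to 2 higher in Soshiho-tang, 26 to 28 lower and 1 to 2 higher in Schisandrae Fructus, 3 to 4 higher in Yijin-tang and 0 to 1 lower in Zizyphi Semen; for the differences it gave 7 to 10 lower in Soshiho-tang minus Yijin-tang, 25 to 28 lower and 0 to 1 higher in Schisandrae Fructus minus Yijin-tang, 9 to 11 lower and 0 to 1 higher in Schisandrae Fructus minus Soshiho-tang and 0 to 1 higher in Longan Arillus minus Zizyphi Semen, the 1 without Longan Arillus low replicate 1. At 2-fold the single libraries had 3 higher and 6 lower for Polygalae Radix high, 0 and 0 for its medium, 0 lower for its low, 0 higher and 2 lower for Aucklandiae Radix high and 0 lower for its medium dose. Against the low-dose library the medium doses had 0 higher and 0 lower for Polygalae Radix and 0 lower for Aucklandiae Radix. Without vehicle replicate 3 Polygalae Radix low had 0 lower, and leaving out each vehicle library gave 0 to 1. The cause of these changes was not tested.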
